A study of Mus musculus with 7 samples.

Results

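The 2 arrays of C2C12 cells that received a control siRNA were described here, out of 7 arrays in the series, as a picture of the gene expression that the cells had before any targeted knockdown. C2C12 is an established line of mouse myoblasts, a single line of muscle precursor cells, so the values stand for that line and not for muscle tissue. Total RNA was labelled by an Affymetrix whole-transcript method and hybridised to arrays, and the other arrays came from cells given siRNA against G9a (siG9a, 3 arrays) or against its relative GLP (siGLP, 2 arrays). The cells of all 7 arrays, controls included, were kept in a DMEM medium with 15% fetal bovine serum, antibiotics and pyruvate and were transfected with 0.2 µmol siRNA for each 100 mm dish, after which cDNA was made from 100 ng RNA. No untransfected culture entered the comparison, so what the transfection itself does is part of every value. The labels do not say whether the arrays of a group came from separate cultures, so the spread between them may be technical. Genes were ranked by the mean log2 signal of both control arrays, with the highest probe set standing for a gene, and 22180 genes with a single symbol were ranked.

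Myoblasts are the dividing precursors of skeletal muscle. The MyoD family of basic helix-loop-helix factors (Myf5, Myod1, Myog and Myf6) directs them along the muscle lineage: Myf5 and Myod1 mark committed cells that still divide, and Myog comes on as they leave the cell cycle. Cell adhesion through cadherins and integrins prepares the cells to align and fuse into myotubes, which then fill with sarcomere proteins.

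Genes of the lineage that the cells' name gives were high in the ranking, but high positions were not particular to that lineage. Both defining myoblast markers, Myod1 and the muscle cadherin gene Cdh15, lay in the upper quartile of all genes, as did Myf5, whereas Myog and Myf6 lay near the middle. Of 121 markers of other cell types, 10 were in the upper quartile too, and all of these ranked above Myod1 and Cdh15. Every measured gene of the mitosis list and 35 of 38 replication genes were in the upper quartile. Focal adhesion and actin genes stood almost as high, at 42 of 45. Most sarcomere genes were in the middle or below it, with Chrna1, a subunit of the muscle acetylcholine receptor, Tnnt2 and Tpm2 at the top.

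Signal on this array ran from 1.5018 to 12.84 on the log2 scale, with a lower quartile of 3.64, a median of 4.98 and an upper quartile of 7.39. Each quartile group at the ends held 5545 genes, which is 25% of all and the share to set beside each count of list members below. Because signal also depends on how well each probe set binds, the order is an order of array signal and not of transcript number, and no fold is given between genes. A reference for background came from the 1394 genes of smell and vomeronasal receptors, which are used in sensory neurons. Their median was 2.58, their 95th percentile was 4.53, and 1197 of them (85.9%) lay below the lower quartile. Signal above that 95th percentile was seen for 12724 genes (57.4%). A gene below it lay in the signal range that holds 95% of these receptors. The percentile is a description and not a detection call. The control arrays gave a Pearson correlation of 0.997 over the genes, which are not independent replicates. The median gap between them was 0.093 log2 units, 95% of gaps were within 0.388, and 19 genes differed by more than 1. For 1466 of the 22180 genes both control arrays held an equal value, and the cause of these ties was not tested. Taken on each control array alone, the upper quartiles shared 5396 genes (97.3%). In the pairs of values below, control 1 comes before control 2.

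**Figure D1:**
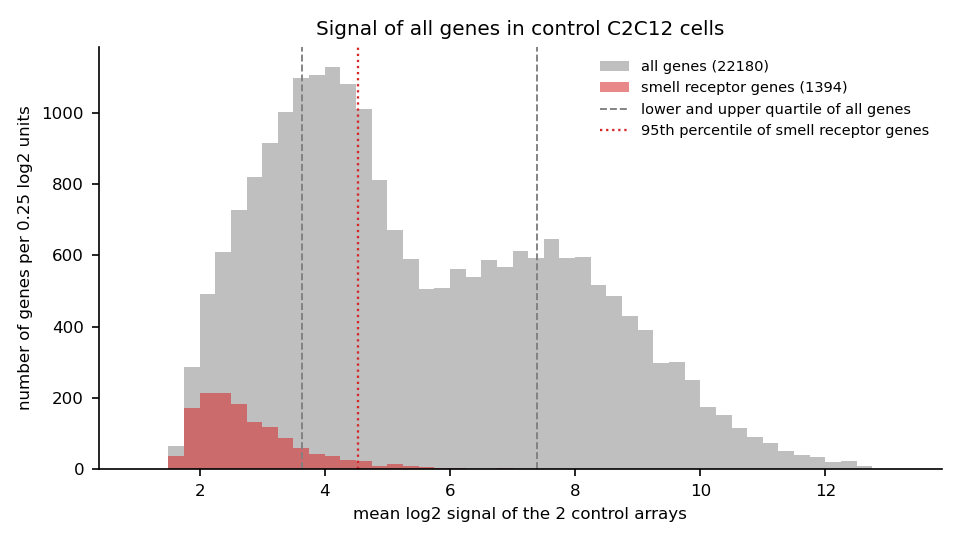
Number of genes (vertical axis) per 0.25 log2 units of mean control signal (horizontal axis), for all 22180 genes in grey and 1394 smell receptor genes in red; dashed lines are the lower and upper quartile of all genes (3.64 and 7.39) and the dotted line is the 95th percentile of the receptors (4.53). The receptors pile up at the low end, and the whole distribution has a low peak near them and a broad shoulder at higher signal.

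Of 25 measured myogenic regulators, 13 were in the upper quartile and 1 was below the lower quartile, with a median percentile of 77.7 against 50 for a gene in mid-ranking. Myf5, the earliest acting member of the MyoD family, gave 8.90 and 8.69. Myod1, which can turn other cell types into muscle, gave 7.46 and 7.80, just above the upper quartile on both arrays. Myog, the factor of terminal differentiation, gave 5.27 and 5.80. Both arrays therefore had the order Myf5, Myod1, Myog, and the gaps between neighbours in that order were larger than the difference between the arrays for each gene. Myf6, the late member of the family, gave 5.04 and 4.79 and overlapped no value of Myog. The E proteins Tcf3, Tcf12 and Tcf4, which pair with MyoD family factors on DNA, were all high, at means near those of Myf5: Tcf3 had 8.90 and 8.85.

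The MEF2 factors, partners of the MyoD family, were split. Mef2d gave 9.37 and 9.40 and Mef2a 9.25 and 9.20, the highest values of the list. Mef2c, the form that differentiating muscle builds up, gave 4.17 and 4.15 and lay under the receptor reference. Tead2, a DNA-binding partner of the Hippo pathway coactivators, had 8.29 and 8.26, and the serum response factor gene Srf had 8.79 and 8.95. Among the homeobox regulators Six4 was the highest, with 7.17 and 7.15, while Six2 at 3.59 and 3.31 was the single member of the list below the lower quartile. Pax7, the defining factor of quiescent and activated satellite cells, gave 5.57 and 5.36. Its relative Pax3, used in the embryonic limb, was under the reference at 3.90 and 3.54.

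Satellite and progenitor cell genes had 16 of 33 measured members in the upper quartile and 1 below the lower quartile. Cdh15, which encodes M-cadherin on the satellite cell surface, gave 7.68 and 7.75. Surface markers of these cells differed in position. High ones were Itgb1 (integrin beta chain) with 11.07 and 11.11, Ncam1 (neural cell adhesion molecule) with 9.25 and 9.24, and Itga7 (laminin-binding integrin chain) with 8.53 and 8.49. Cd34, a sialomucin, was in the middle at 6.82 and 6.61, and Calcr, the calcitonin receptor, was under the receptor reference at 4.15 and 4.08. Des, the muscle intermediate filament that is already made in myoblasts, gave 11.00 and 11.03. Met, the receptor of hepatocyte growth factor, gave 9.32 and 9.31, and Hgf, its ligand, gave 7.46 and 6.83. Hgf therefore changed sides of the upper quartile between the arrays. Id3, an inhibitor of MyoD family factors, had 9.42 and 9.45. The growth factor Igf2 was near the reference at 4.50 and 4.77, and Mstn, the secreted brake on muscle growth, was below the lower quartile at 2.40 and 2.35.

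Genes for fusion of myoblasts had 13 of 25 members in the upper quartile. These were mostly genes with other duties as well, such as the small GTPase genes Cdc42 (11.25 and 11.22) and Rac1 (10.98 and 10.98), and the membrane repair protein gene Myof (10.08 and 9.88). Cdon, a coreceptor at cadherin contacts, gave 9.23 and 9.19, and its partner Boc gave 5.25 and 5.23. The muscle-specific fusogens were lower: Mymk (myomaker) gave 6.34 on both arrays, and Mymx (myomerger) gave 5.21 and 5.10. Both were above the receptor reference and under the upper quartile. Adgrb3 and Stab2, receptors linked to myoblast fusion, were the 2 members below the lower quartile, with 2.93 and 3.20 for Adgrb3.

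Among 53 sarcomere and contraction genes, 10 were in the upper quartile and 8 were below the lower quartile, with a median percentile of 46.1. The high members were led by the acetylcholine receptor, which receives the signal of the motor nerve. Its alpha subunit gene Chrna1 gave 10.44 and 10.77, the delta subunit gene Chrnd gave 8.68 and 9.04, and the beta subunit gene Chrnb1 gave 8.43 and 8.60. The gamma subunit of the fetal receptor (Chrng) gave 6.51 and 6.47, and the epsilon subunit that replaces it in the adult (Chrne) gave 4.70 on both. The fetal subunit thus stood above the adult one on each array, although the probe sets are different and their signals set no ratio. Musk, the kinase that gathers these receptors, had 7.28 and 7.51, on either side of the upper quartile, with a mean just inside it, whereas Vcam1, an adhesion receptor of progenitor cells, lay just outside with 7.43 and 7.32. At the lower quartile the glycogen phosphorylase gene Pygm (3.67 and 3.75) lay just above and the integrin chain Itga4 (3.63 and 3.56) just below.

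Filament genes in the upper quartile were Tnnt2, the cardiac and embryonic troponin T (10.54 and 10.10), the tropomyosin genes Tpm2 (10.22 and 10.22) and Tpm3 (8.84 and 8.66), Tnnc1, the slow troponin C (7.59 and 7.63), and Actn3, the fast-fibre alpha-actinin (8.87 and 9.22). Acta1, the skeletal actin, was at 6.34 and 6.60. Of the myosin heavy chains, Myh4, Myh1 and Myh3 lay below the lower quartile, and Myh7 (slow fibres, 4.49 and 4.63), Myh2 (fast fibres, 4.11 and 4.13), Myh8 and Myh6 lay in the middle. Myh4 (fast fibres) gave 2.90 and 2.95, Myh1 (fast fibres) gave 3.45 and 2.90, and Myh3 (embryonic fibres) gave 3.31 and 3.52. Ckm, the muscle creatine kinase, had 4.84 and 4.58, close to the reference. Myl1, a fast myosin light chain (3.20 and 3.31), and Actn2, an alpha-actinin of the Z disc (3.19 and 3.36), were also below the lower quartile. In bulk RNA, a few cells with much of a transcript and many cells with little of it cannot be told apart.

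**Figure D2:**
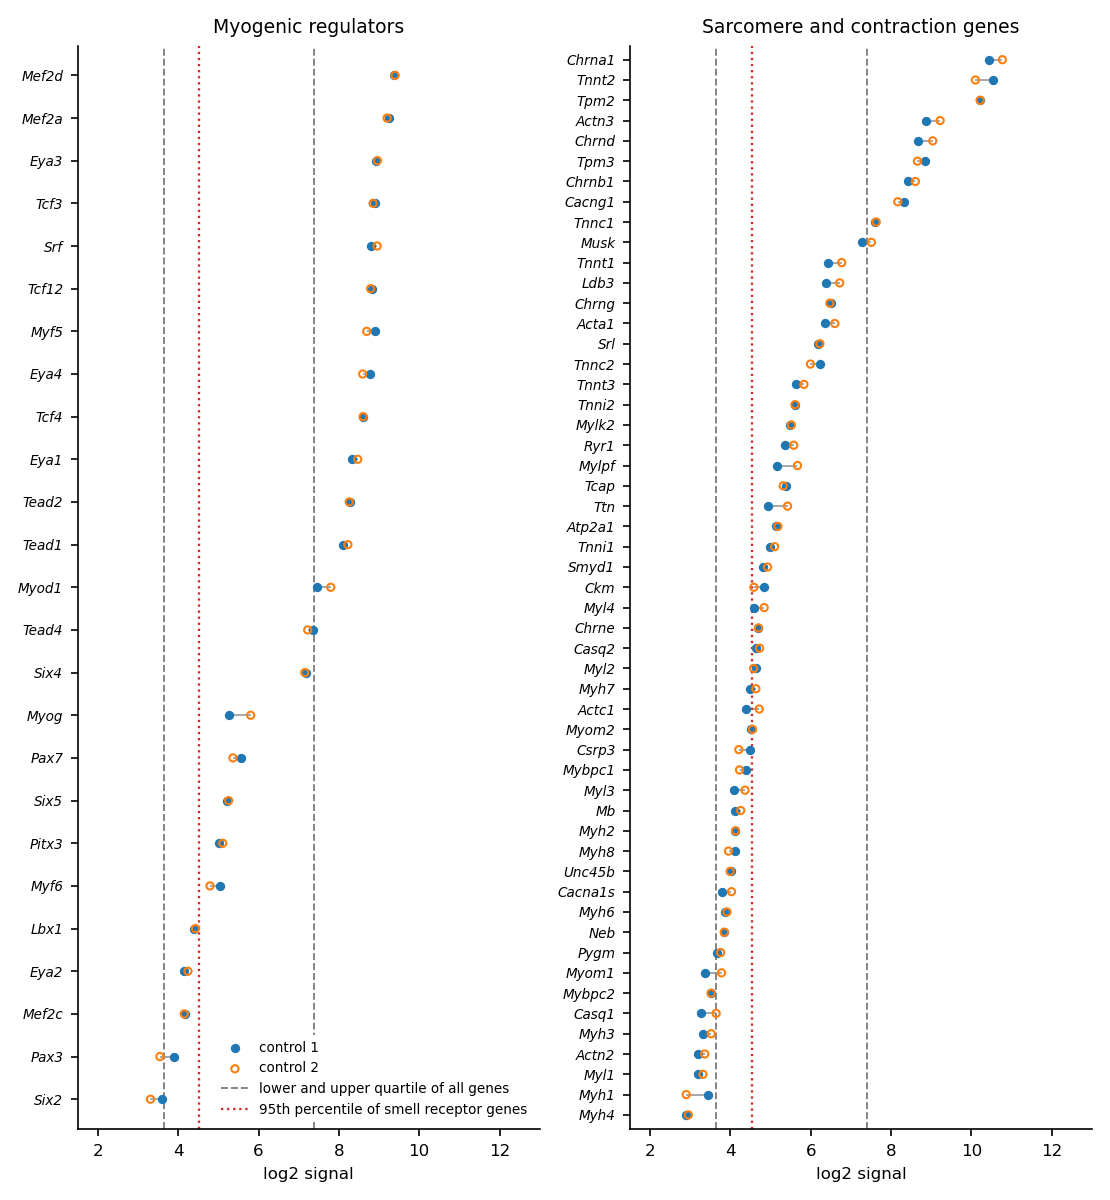
Log2 signal (horizontal axis) of each measured myogenic regulator (left) and sarcomere or contraction gene (right) on control 1 (filled circles) and control 2 (open circles), joined by a line; dashed lines are the quartiles of all genes (3.64 and 7.39) and the dotted line is the 95th percentile of smell receptor genes (4.53). Regulators form a high block with Myf5 and Mef2d and a low block with Pax3 and Six2, and the sarcomere genes run from Chrna1 above 10 to Myh4 below 3.

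The 2 control arrays differed more often in the same direction in the sarcomere list than over all genes, and so they did in some lists of other cell types. Control 2 was higher for 37 of the 53 genes and control 1 for 13, with a median difference of 0.086 in favour of control 2. Control 2 was higher for 69.8% of the list, 49.0% of all genes and 50.9% of genes above the median level. The last had a median difference of 0.003. Control 2 was also higher for 71.4% of 14 leukocyte markers and 68.8% of 16 neuronal markers, but for only 21.4% of 14 fibroblast markers. By more than 0.2 log2 units, control 2 was higher for 18 sarcomere genes and control 1 for 5. Over all 22180 genes these counts were 2496 and 2256. Among the 18 were Mylpf, a fast myosin light chain (5.15 and 5.67), and Ttn, the titin gene (4.94 and 5.42). Tnnt2 and Myh1 were among the 5. Myog and Myod1 were also higher on control 2, and Myf5 and Pax7 were higher on control 1. Over the 25 myogenic regulators, control 2 was higher for 11 and control 1 for 13. These are differences between 2 arrays, noticed after their values were seen, and they carry no test.

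To show what DNA lies before genes at both ends of the ranking, the 250 bases upstream of the start are printed for a myoblast marker (Cdh15, upper quartile), the highest contraction gene (Chrna1), a mitotic cyclin gene (Ccnb2, upper quartile) and a myosin gene below the lower quartile (Myh1). They are RefSeq sequences on build GRCm38.p6, read 5′ to 3′ on the strand of the gene. Cdh15 lies at chr8:122848124-122848373 on the plus strand, Chrna1 at chr2:73580339-73580588 on the minus strand, Ccnb2 at chr9:70421555-70421804 on the minus strand and Myh1 at chr11:67199852-67200101 on the plus strand. Capitals mark matches to CAGCTG (an E-box form that MyoD family factors can bind), to CCAAT (the letters that factor NF-Y binds), to TTTGAA (the core of the cell cycle homology region) and to TATAAA (the TATA box), each searched on both strands. No motif overlaps another in these windows.
Cdh15: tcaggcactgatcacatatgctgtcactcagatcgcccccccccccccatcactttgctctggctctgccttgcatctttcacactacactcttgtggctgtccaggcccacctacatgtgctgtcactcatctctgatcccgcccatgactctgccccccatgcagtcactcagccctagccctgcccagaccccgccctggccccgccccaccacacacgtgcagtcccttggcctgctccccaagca
Chrna1: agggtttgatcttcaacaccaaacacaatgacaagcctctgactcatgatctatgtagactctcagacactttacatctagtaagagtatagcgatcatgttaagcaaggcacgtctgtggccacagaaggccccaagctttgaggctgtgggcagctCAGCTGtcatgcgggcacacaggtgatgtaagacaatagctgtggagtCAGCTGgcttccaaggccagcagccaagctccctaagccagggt
Ccnb2: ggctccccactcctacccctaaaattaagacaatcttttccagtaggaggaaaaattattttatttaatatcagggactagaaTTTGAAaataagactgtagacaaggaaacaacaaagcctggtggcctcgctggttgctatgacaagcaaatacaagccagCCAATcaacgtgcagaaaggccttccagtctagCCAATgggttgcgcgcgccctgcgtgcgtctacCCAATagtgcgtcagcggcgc
Myh1: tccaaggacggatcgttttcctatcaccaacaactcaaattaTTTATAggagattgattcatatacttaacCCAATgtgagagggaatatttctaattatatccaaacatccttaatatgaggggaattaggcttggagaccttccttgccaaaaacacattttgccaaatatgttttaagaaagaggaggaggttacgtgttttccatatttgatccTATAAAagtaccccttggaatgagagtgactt

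The Chrna1 window held CAGCTG 92 and 44 bases before the start. Ccnb2 had 3 copies of CCAAT, at 87, 54 and 21 bases before the start, and a TTTGAA at 167. Myh1 had TATAAA at 32, its reverse form TTTATA at 208 and a CCAAT at 179. None of these letters was found in the Cdh15 window, which says only that they are not in these 250 bases. Positions count from the first base of each match back to the start.

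Promoter sequences were available for 15358 of 18961 protein-coding genes (81.0%). The median CpG content, as the observed over the expected number, was 0.793 for 4425 promoters of upper-quartile genes and 0.175 for 3383 promoters of genes below the lower quartile. Without the smell receptor genes the lower group had 0.223. A TATAAA was present in 5.51% of upper-quartile promoters, in 26.3% of those below the lower quartile and in 11.9% of all. Without the smell receptor genes the lower group had TATAAA in 21.0%. High control signal therefore went with CpG-rich windows, and TATA letters were more frequent at the low end. The median GC content was 61.2% for upper-quartile promoters and 43.2% for those below the lower quartile. Whether the TATA shares follow from base composition was not tested. CAGCTG was found in 18 of 43 sarcomere promoters (41.9%), against 11.9% of all promoters and 12.8% of mitosis promoters. CCAAT was found in 27 of 39 mitosis promoters (69.2%) and in 22 of 31 replication promoters (71.0%), against 35.8% of all. TTTGAA was in 13 of 39 mitosis promoters (33.3%) and in 14.0% of all. It was in 10.1% of upper-quartile promoters and in 24.2% of those below the lower quartile, so it did not follow high signal. These shares are descriptions, and a match is not a bound site. The sarcomere promoters had a median CpG ratio of 0.257, nearer the low end of the ranking than that of the mitosis promoters at 0.803.

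**Figure D3:**
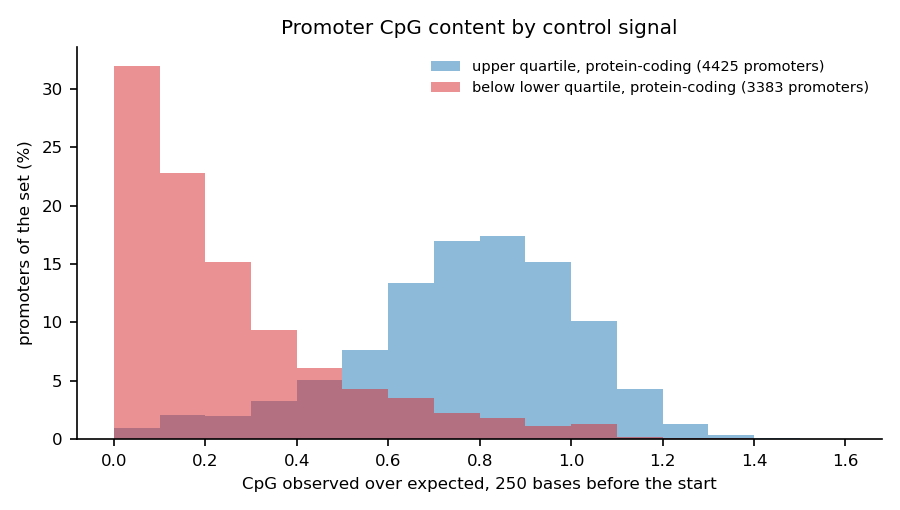
Share of promoters (vertical axis, %) by the ratio of observed to expected CpG in the 250 bases before the start (horizontal axis), for upper-quartile genes in blue (4425 promoters) and genes below the lower quartile in red (3383 promoters). The blue distribution centres near its median of 0.793 and the red one is heaped near 0, with a median of 0.175.

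Cell adhesion genes differed in position. Of 27 cadherins and desmosomal cadherins, 3 were in the upper quartile and 10 were below the lower quartile. The 3 were Cdh2 (N-cadherin), which gave 9.25 and 9.23, Cdh18 with 8.11 on both arrays, and Cdh15. Cdh2 and Cdh15 are the cadherins known at myoblast contacts, and Cdh11, the cadherin of mesenchymal cells, was in the middle at 6.11 and 6.26. Cdh1, the epithelial E-cadherin, gave 4.23 and 4.17 and lay under the receptor reference. Desmosomal genes were low as well, for example Dsg3 with 3.16 and 3.21 and Dsc3 with 3.26 and 2.94.

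Integrin chains, which tie cells to the matrix, had 9 of 25 members in the upper quartile and 6 below the lower quartile, the latter near the 25% of all genes. The common partner chain Itgb1 stood at the top. Its fibronectin-binding partner chain Itga5 had a mean of 10.03, the RGD-binding chain Itgav had 9.49 on both arrays, and the laminin-binding chains Itga3 and Itga6 had 8.68 and 8.63, and 8.45 and 8.13. The 6 low chains included Itgam, the leukocyte chain (3.37 and 3.75), and Itgb6, an epithelial chain (3.36 and 3.22). The chains did not divide by ligand: Itga4 and Itga8 (3.46 on both arrays), which can also bind fibronectin, were below the lower quartile, and Itgb7, a leukocyte chain, was just inside the upper quartile at 7.44 and 7.51.

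The focal adhesion and actin list, by contrast, was high almost throughout, with a median percentile of 96.6. Vim, the mesenchymal intermediate filament gene, gave 12.61 and 12.62. Others of the highest values belonged to Actg1 (cytoplasmic gamma-actin, 12.37 and 12.36), Pfn1 (profilin, 12.15 and 12.12) and Msn (moesin, 11.79 and 11.83). The adhesion plaque gene Zyx gave 11.48 and 11.45. Vcl, which links integrin complexes to actin, had 10.86 and 10.93. Members outside the upper quartile were Lasp1 (mean 6.96), Pxn (7.18 and 7.17) and Tmsb10 (7.24 and 7.29), all within 0.5 of it. Values of near-identical genes of the actin and tubulin families may share signal, since probes can bind both.

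**Figure D4:**
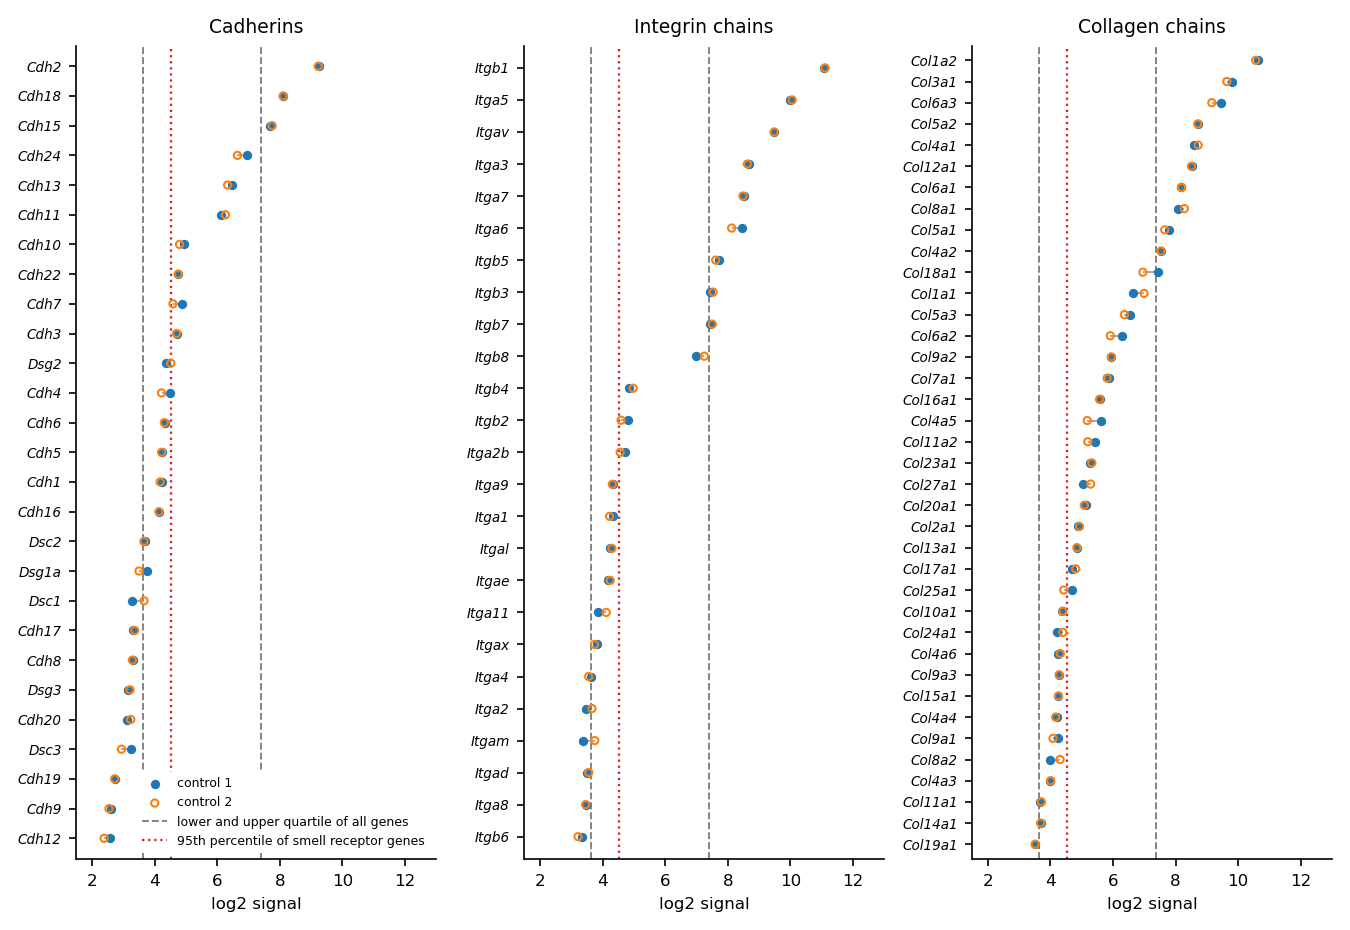
Log2 signal (horizontal axis) of cadherins (left), integrin chains (middle) and collagen chains (right) on control 1 (filled circles) and control 2 (open circles); dashed lines are the quartiles of all genes (3.64 and 7.39) and the dotted line is the 95th percentile of smell receptor genes (4.53). Cdh2, Itgb1 and Col1a2 are the highest of their families; 13 of 25 integrin chains and 26 of 38 collagen chains lie right of the dotted line, and the collagens fall off gradually.

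The share of matrix genes in the upper quartile differed by list, and each list ran from high to low signal. Of 38 collagen chains, 10 were in the upper quartile (26.3%, near the 25% of all genes) and only Col19a1 (3.52 and 3.51) was below the lower quartile. Col1a2, a chain of fibrillar type I collagen, gave 10.64 and 10.56, while its partner chain Col1a1 gave 6.66 and 6.99 and was not in the upper quartile. The network collagens of basement membranes Col4a1 and Col4a2 had 8.60 and 8.72, and 7.55 and 7.53. Type III (Col3a1, 9.79 and 9.64) and type VI (Col6a3, 9.46 and 9.16) were next to the highest. Col2a1 and Col10a1, the cartilage collagens, lay close to the reference, at 4.87 and 4.93 and at 4.36 and 4.40.

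Among 42 other matrix genes, 22 were in the upper quartile and 4 were below the lower quartile. Fn1 (fibronectin) stood at 12.09 and 12.08, Bgn (the proteoglycan biglycan) at 11.92 and 11.73, and Nid1 (nidogen, which joins laminin to type IV collagen) at 11.69 and 11.84. Lamc1 and Lamb1, chains shared by most laminins, had 9.81 and 9.87, and 9.49 on both arrays. The laminin alpha chains were lower: Lama5 had 7.93 and 7.84, Lama2, the chain of adult muscle, had 5.82 and 5.68, and Lama4 had 3.28 on both. The proteoglycan genes Dcn (3.47 and 3.57) and Lum (2.75 and 2.67), which fibroblasts express strongly, were below the lower quartile. Some matrix genes also had wide gaps between the controls: Postn (periostin) gave 5.79 and 6.76, Ccn2, a target of TGF-beta and Hippo signals, gave 7.59 and 8.35, and Thbs3 (a thrombospondin) gave 7.07 and 6.35. These gaps exceed the 95th percentile of all genes.

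Enzymes that process and cut the matrix had 21 of 33 members in the upper quartile. The lysosomal proteases Ctsl (11.40 and 11.47) and Ctsb (11.27 and 11.33) led, followed by Pcolce, an enhancer of procollagen cleavage (11.16 and 11.13). The membrane-bound protease Mmp14 was at 10.38 and 10.30, and its inhibitor Timp2 at 10.64 and 10.73. Secreted proteases were spread widely, from Plau, the urokinase gene (10.15 and 10.16), and Bmp1, a procollagen protease (8.83 and 8.82), to Mmp2 (7.11 and 6.92) and Mmp9 (4.37 and 4.24). Mmp13 (3.35 and 3.34) and Mmp3 (3.56 and 3.52) were below the lower quartile.

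Cell cycle genes were high as a body. All 45 mitosis and cytokinesis genes were in the upper quartile, with a median percentile of 93.2, and the lowest of them, Cks1b, a subunit of cyclin-dependent kinases, gave 7.47 and 7.58. Ube2c, which marks mitotic cyclins for destruction, gave 10.67 and 10.71, Cdc20, an activator of the same machinery, gave 10.09 and 10.13, and the proliferation marker Mki67 gave 10.12 and 9.93. None of the 45 differed by more than 0.2 between the controls. DNA replication had 35 of 38 genes in the upper quartile and 0 below the lower quartile. Pcna, the sliding clamp, had 11.13 and 11.14, Rrm2, a ribonucleotide reductase subunit, had 10.57 and 10.55, and Mcm6, a helicase subunit, had 10.06 on both arrays. The 3 outside were Fen1 (6.94 and 7.17), a flap nuclease, Orc1 (7.14 and 7.11), part of the origin complex, and Pold1 (7.33 and 7.17), a polymerase subunit.

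Of 18 cyclins and their kinases, 15 were in the upper quartile. Ccna2, the cyclin of S phase and G2, gave 10.88 and 10.82, Cdk1, the kinase of mitosis, gave 10.69 and 10.82, and Ccnd1, the growth-factor-driven G1 cyclin, gave 10.68 and 10.71. Ccnb2, whose printed promoter holds CCAAT repeatedly, gave 9.97 and 10.03. The germ cell cyclins were the low ones, with Ccna1 at 4.11 and 4.08 and Ccnb3 at 3.20 and 3.21. Inhibitors of the cycle were present together with these genes: Cdkn1a, a CDK inhibitor that rises at muscle differentiation and under stress, gave 11.34 and 11.26 and was the highest of its list. Cdkn1b had 8.26 and 8.22, Rb1 (retinoblastoma protein) had 8.53 and 8.48, and Cdkn1c had 4.82 and 4.71. Cdkn2a, the locus that is often lost in cell lines, gave 4.71 and 4.94, just above the receptor reference.

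Metabolic genes stood high on the whole. The TCA cycle list had 24 of 25 members in the upper quartile and oxidative phosphorylation 45 of 53. Mdh2, the mitochondrial malate dehydrogenase, gave 11.71 and 11.80, and Cs, citrate synthase, gave 10.66 and 10.67. Atp5b, a catalytic subunit of ATP synthase, had 12.03 and 11.99, and Cox4i1, the common form of a cytochrome oxidase subunit, had 11.44 and 11.46. Muscle and tissue-specific forms of the subunits included Cox6a2, which gave 5.86 and 5.90, Cox7a1, which gave 5.55 and 5.74, and Cox8b, under the reference at 3.91 and 3.85. The widespread forms Cox6a1 (11.91 and 11.92), Cox7a2 (11.03 and 11.04) and Cox8a (10.97 and 11.05) were all in the upper quartile. Some widespread subunits were as low as the muscle forms, such as Cox7c (5.30 and 5.36) and Atp5o (5.11 on both arrays), so position did not separate the forms. Pcx, which feeds oxaloacetate into the cycle, was the single TCA gene outside the upper quartile, at 5.26 and 5.61.

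Glycolysis was more mixed, with 12 of 27 in the upper quartile and 2 below the lower quartile. Gapdh (12.46 and 12.39), Pkm, pyruvate kinase (12.10 and 12.08), and Pgk1, phosphoglycerate kinase (11.75 and 11.84), were the highest, and the glucose transporter Slc2a1 was at 11.21 and 11.40. Eno3, the muscle enolase, gave 10.84 and 10.63. The insulin-responsive transporter Slc2a4 gave 4.39 and 4.42, under the reference, and the muscle mutase Pgam2 gave 4.92 and 4.83. The testis forms Pgk2 (2.40 and 2.39) and Ldhc (3.41 and 3.50) were the 2 low members.

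Synthesis pathways of growing cells were high. Serine, one-carbon and nucleotide genes had 22 of 23 in the upper quartile, led by Shmt2, the mitochondrial serine hydroxymethyltransferase (10.83 and 10.71), and Atic, of purine synthesis (10.60 and 10.76). Cholesterol and fatty acid genes had 18 of 23, led by Fdps, farnesyl diphosphate synthase (10.36 and 10.45), with the desaturase Scd1 at 10.22 and 10.35. The 2 controls leaned in opposite directions on these lists: control 1 was higher for 18 of 23 serine, one-carbon and nucleotide genes, with a median difference of 0.073, and control 2 was higher for 17 of 23 cholesterol and fatty acid genes, with a median difference of 0.084. Translation factors and chaperones had 32 of 34 in the upper quartile and a median percentile of 98.8. Hspa8, the constitutive heat shock cognate, gave 12.67 and 12.65, and Eef1a1, the elongation factor, gave 12.26 and 12.25, while its muscle and neuron form Eef1a2 gave 5.44 and 5.43.

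**Figure D5:**
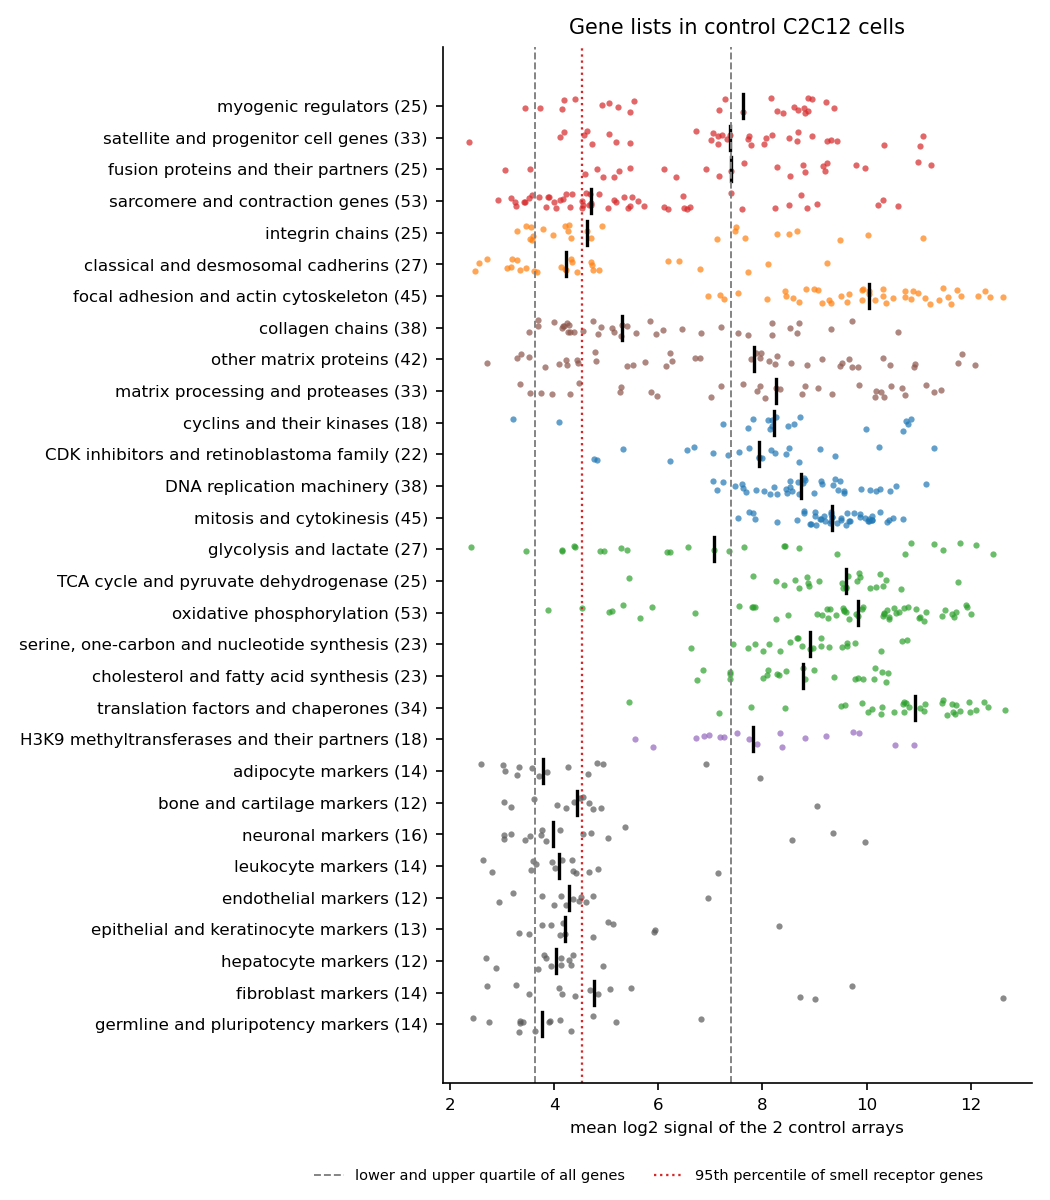
Mean log2 signal of the 2 control arrays (horizontal axis) for each measured gene (dots) of 30 lists (rows, number of measured genes in brackets; colours separate muscle lineage, adhesion, matrix, cycle, metabolism, chromatin and other cell types from top to bottom), with the median of each list as a black bar; dashed lines are the quartiles of all genes and the dotted line is the 95th percentile of smell receptor genes. The medians of the cycle, focal adhesion and metabolism lists lie right of the upper quartile line, glycolysis excepted, and those of other cell types lie left of the dotted line, fibroblast markers excepted.

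The genes targeted in the other groups belong to the machinery that places, reads and removes methyl groups on H3K9, a mark of repressed chromatin. Of 18 genes listed for this machinery and its partners, demethylases such as Kdm1a (9.83 and 9.86) included, 11 were in the upper quartile and 0 below the lower quartile. Ehmt2, which encodes G9a, gave 7.56 and 7.46 in the controls, and Ehmt1, which encodes GLP, gave 6.71 and 6.73. The readers of the mark were higher, with Cbx5 at 10.94 and 10.86 and Cbx3 at 10.60 and 10.51, and Setdb1, another methyltransferase, was at 8.40 and 8.27.

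Markers of 9 other cell types were mostly under the receptor reference. Of 121 measured, 10 were in the upper quartile and 41 were above the receptor reference, against 57.4% of all genes above it. Below the lower quartile were 33, near the 25% of all genes. The defining genes of blood cells (Ptprc, 2.80 on both arrays), endothelium (Cdh5, 4.22 on both), epithelium (Epcam, 3.34 and 3.31), liver (Alb, 3.69 and 3.93) and fat (Adipoq, 2.95 and 3.09) were all under that reference. Other members of their lists lay above it, such as Cd68 (7.06 and 7.22), Flt1 (6.79 and 7.11) and Krt19 (6.04 and 5.84). Above it were 3 of 14 leukocyte, 3 of 12 endothelial, 6 of 13 epithelial, 1 of 12 hepatocyte and 8 of 14 fibroblast markers. No leukocyte, endothelial, hepatocyte or germline marker was in the upper quartile. The 10 high ones were S100a4, Col3a1, Pdgfrb and Prrx1 of the fibroblast list, Nefl, Nefm and Tubb3 of the neuronal list, and Pparg, Sox9 and Krt14. Nefl, a neurofilament subunit, gave 9.81 and 10.14, and Nefm, its partner, gave 9.24 and 9.48, whereas the neuronal genes Snap25 (3.77 and 3.74) and Dcx (2.94 and 3.14) were near or below the lower quartile. Of 16 neuronal markers 7 were above the reference, among them Map2 (5.24 and 5.48) and Rbfox3 (4.91 and 5.15). Pparg, the master regulator of fat cells, had 7.99 and 7.92, and Sox9, the regulator of cartilage, had 8.98 and 9.12. Genes that they switch on in those tissues lay on both sides of the reference. Fabp4 (3.48 and 3.18) and Acan (4.23 on both) lay under it, and Lpl (6.85 and 6.99) and Col2a1 (4.87 and 4.93) lay above it. With Pparg and Sox9 counted, 5 of 14 fat markers and 5 of 12 bone and cartilage markers were above the reference. The fibroblast genes Pdgfra (4.65 and 4.73) and Thy1 (4.90 and 4.79) were just above it.

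At the very top of the ranking stood the general machinery of a growing cell. Among the 100 highest genes, 23 encoded ribosomal proteins, 8 came from the mitochondrial genome and 9 were translation factors or chaperones, and 0 belonged to the lists of muscle regulators or sarcomere genes. The tubulin genes Tuba1c (12.83 and 12.84) and Tuba1b (12.70 and 12.76), which are near-identical, were the highest named ones. The calcium-binding protein genes S100a4 (12.65 and 12.57) and S100a6 (12.46 and 12.47), the lectin Lgals1 (12.53 and 12.50), the cytokine Mif (12.49 and 12.48) and the iron store Fth1 (12.30 and 12.30) were in the same range. Ribosomal protein genes were not uniform: 31 of 39 listed were in the upper quartile, and Rps16 at 5.86 and 5.83 was the lowest, although all are parts of one particle. Ldha, lactate dehydrogenase, similarly had 5.32 and 5.25. Such spread among genes of a shared structure shows how far signal on this array can differ from gene to gene.

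Small RNA genes aside, of which Mir23a (gap 1.44) and Mir5123 (gap 1.27) differed more widely, the largest gaps between the controls among genes above the median level were in Pdlim3, a muscle Z-disc protein gene (7.24 and 8.32), Acyp2, an acylphosphatase (5.25 and 6.30), and Zfp345 (4.68 and 5.72). The smell receptor gene Olfr93 (gap 0.991) and Postn followed, and among the next were Arrdc3, an arrestin-like gene (7.83 and 6.91), Cth, which makes cysteine (8.29 and 7.43), and Socs2, a cytokine signal inhibitor (5.54 and 6.36). Genes in the upper quartile were the steadiest, with a median gap of 0.068, against 0.112 below the lower quartile.

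The control state was then set against the knockdowns over all genes with limma on the 7 arrays. Both comparisons share the same control arrays, so they are not independent. In siG9a cells 6 of 22180 genes (0.0271%) passed an adjusted p of 0.05, 1 higher and 5 lower, and 2335 had an unadjusted p under 0.05. In siGLP cells 1 gene (0.00451%) passed, Ei24, with 1916 at an unadjusted p under 0.05. No call in siG9a cells was kept when any 1 of the 7 arrays was left out, and the call in siGLP cells was kept only without siG9a replicate 1. Of 819 listed genes, 3 were called in siG9a cells, the targeted gene Ehmt2 among them, and 0 in siGLP cells. The lists were chosen with earlier results of these data known. These counts therefore do not show that listed genes were called more often than others. The ranking itself moved little: 97.0% of the control upper-quartile genes were in the upper quartile of siG9a cells and 97.2% in that of siGLP cells.

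The targeted gene Ehmt2 gave 6.31, 6.14 and 5.99 in siG9a cells, below both control values, and 7.37 on both siGLP arrays. Its log2 difference from control in siG9a cells was -1.37 (SE 0.10, limma with Benjamini-Hochberg adjustment, adjusted p = 0.0309). Ehmt1 gave 5.73 and 6.13 in siGLP cells, below both controls, with a difference of -0.79 (SE 0.135, limma adjusted p = 0.198). The other listed genes called in siG9a cells were Tead2 and Eif5a2, a translation factor gene. Tead2 gave 7.06, 7.21 and 6.93 there, which lies below both controls, a limma difference of -1.21 (SE 0.097, adjusted p = 0.0309).

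Of the 2 myoblast markers, Myod1 gave 7.04, 6.99 and 6.82 in siG9a cells, below both controls, and 7.53 and 7.73 in siGLP cells, within the range of the controls. Its limma difference was -0.68 in siG9a cells (SE 0.125, adjusted p = 0.146) and -0.0025 in siGLP cells (SE 0.137, adjusted p = 1). Cdh15 gave 7.21, 7.36 and 7.06 in siG9a cells and 7.09 and 7.32 in siGLP cells, all below both controls. The limma differences for Cdh15 were -0.51 in siG9a cells (SE 0.11, adjusted p = 0.18) and -0.51 in siGLP cells (SE 0.12, adjusted p = 0.291). Neither marker passed the threshold in either comparison, which does not show that the levels were equal. Between siGLP and siG9a cells directly, 52 of 22180 genes (0.234%) passed, 30 of them higher in siGLP cells. Of these 52, 6 were listed genes, and the same limit of the lists applies. No gene was called there when any 1 array was left out.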

How the data were processed

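Values are the deposited log2 signals of 33649 probe sets on 7 arrays, with RMA and Partek listed, in no stated role, by the submitters' processing notes; no source used here gives the build of the array's design. RMA makes array distributions alike, so a shift of all genes together would not be seen. Of the probe sets, 23521 had 1 gene symbol, 1814 had several and 8314 had none; symbols came from the platform annotation, and 23328 of the single-symbol sets matched RefSeq. For the 1082 genes with several probe sets, the one with the highest control mean was used, in the group comparisons as well. That choice can raise the control side of a difference for these genes, and no other choice was tried in the comparisons. Groups were compared with limma 3.58.1 in R 4.3.3 (lmFit and eBayes over 22180 genes, 1 mean per group, Benjamini-Hochberg). The code was run on simulated data with noise drawn from the fitted model and changes larger than any called difference from control. That run checks the code and not how well these data meet the model. Python 3.11.15 did the ranking. The labels give no batch, and precision is limited by how few arrays there are.

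The members and gene lists were chosen with earlier results of these data known. They hold 902 symbols in 31 lists, and 819 were measured. Named genes are the MyoD family, Cdh15, Ehmt1, Ehmt2, the highest and lowest members of each list, the top of the ranking and the widest control gaps; other list members, named for their role, were chosen after their values were seen. Alternatives were each array left out, a replicate block, quantile normalisation, genes below the median left out, trended and robust variance, a fit of 2 groups, and other ranking rules.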

Additional observations from a re-analysis of the deposited data

Results flagged for a closer look

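For 6 listed genes the siG9a and siGLP cells differed from each other in the direct limma comparison, so that their difference from the shared controls was not the same. With 819 listed genes among 22180 tested and 52 called, some calls can arise by chance, and no call was kept when 1 array was left out. The siGLP minus siG9a difference of Ehmt2 was 1.22, as the targeted gene of the siG9a cells (limma adjusted p = 0.0278). That of Tead2 was 1.17 (limma adjusted p = 0.0278), with a control mean of 8.27 and means of 7.07 in siG9a and 8.24 in siGLP cells. Cnn1, the smooth muscle calponin gene, differed by 1.23 (limma adjusted p = 0.0409), with means of 8.45 in control, 7.62 in siG9a and 8.85 in siGLP cells. Tagln, another smooth muscle actin-binding gene, differed by 0.78 (limma adjusted p = 0.0479) and Eif5a2 by 0.67 (limma adjusted p = 0.0342). Ehd2, a membrane-shaping protein that binds Myof, had a difference of -0.61 (limma adjusted p = 0.0409), with means of 9.16 in control, 9.48 in siG9a and 8.87 in siGLP cells. The control lay between both knockdowns for Cnn1, Tagln and Ehd2.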

How the results depend on the processing

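The positions of the control ranking moved little: 465 to 508 list places were in the upper quartile under the alternatives, against 468. Below the lower quartile, 68 places became 40 with quartiles over all probe sets, which include many low ones. The counts of called genes depended on the fit. For siG9a minus control, 6 calls became 0 with the replicate block, 16 with quantile normalisation, 148 with genes below the median left out, 100 with trended and robust variance and 0 in a fit of only those 2 groups; leaving out 1 array gave 0 to 0. For siGLP minus control, 1 call became 0 with the replicate block, 21, 23 and 0 under the last 3 of these, and 0 to 1 with 1 array left out. For siGLP minus siG9a, 52 calls became 0 with the block, 350, 299 and 0, and 0 to 0 with 1 array left out. Where an arm kept 1 array, that array was assumed to vary like the others. Same-numbered arrays had correlated deviations of 0.137 and 0.005 (control and siG9a), 0.102 (control and siGLP), and 0.172 and 0.138 (siG9a and siGLP). Each comparison holds only 2 such pairs and the labels name nothing shared, so the numbers were not taken to pair the samples. The Myod1 difference in siGLP cells turned positive, to 0.0013 with quantile normalisation, 0.1647 without control replicate 2 and 0.0997 without siGLP replicate 1; over all arrays left out it ran from -0.1697 to 0.1647. The cause of these changes was not tested. With 2 control arrays, an SD has little weight, and signal under 4.53 lay in the range that holds most smell receptor genes.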

Other observations

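High in the ranking were Odf1, a sperm tail gene, at rank 11 (12.49 and 12.50 on the control arrays), Vmn1r233, a vomeronasal receptor, at rank 42 (12.14 and 12.09), and Cnbd2 at rank 43 (12.12 and 12.10), all chosen after their values were seen. Vmn1r233 was the only one of 1394 smell receptor genes in the upper quartile. MicroRNA gene probe sets can read the primary transcript and not the mature form. The muscle microRNA genes Mir206 (2.42 and 2.32), Mir1a-1 (2.09 and 2.29) and Mir133a-2 (2.52 and 2.96) lay below the lower quartile, Mir133b (4.33 and 4.01) lay in the middle, and Mir31 gave 6.24 and 5.89.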
